A study of Mus musculus with 16 samples.

Results

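The bone morphogenetic protein (BMP) genes examined here are 10 of the 22367 protein-coding genes annotated on mm9, taken by name. They are the ligands Bmp2, Bmp4, Bmp5, Bmp6 and Bmp7, the receptors Bmpr1a, Bmpr1b and Bmpr2, the secreted antagonist Nog and the membrane antagonist Bambi. The choice was by name and used no measured value as a rule, but earlier results of these data were known when it was made. All 10 were found in the annotation. For each gene, peaks of histone H3 trimethylated on lysine 4, 27 or 9 (H3K4me3, H3K27me3 and H3K9me3) were read within 3000 bp to either side of every annotated transcript start, called here a start peak, and over the gene body.

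The peaks came from ChIP-seq of 4 populations sorted by FACS from skin of wild-type CD1 x FVB male mice, with chromatin cut to mononucleosomes by micrococcal nuclease after brief fixation. EA-HFSCs are CD34+/α6-integrin+ hair follicle stem cells of the bulge taken in early anagen (PD22 to PD25), the dividing phase, and LC-HFSCs the same sort in late catagen (PD38 to PD44), the quiescent phase. Non-EA-HFSCs and non-LC-HFSCs are the CD34-/α6-integrin+ cells of the same ages, mostly epidermis and lower outer root sheath, so they are a mixture and not 1 cell type. Mice were pooled for each population, and reads of independent experiments were pooled before peaks were called, which leaves 1 list for each of the 12 combinations of mark and population. Differences between populations therefore come without replicates and without a test. The lists give no read numbers, so no depth is set beside a peak. The authors state that LC-HFSCs had more mapped reads than EA-HFSCs.

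BMPs are secreted ligands of the TGF-beta superfamily. They bring together type I receptors (Bmpr1a, Bmpr1b) and the type II receptor Bmpr2, which phosphorylate Smad1, Smad5 and Smad9, and these act with Smad4 on target genes such as the Id genes. In skin, BMP signalling is known to hold bulge stem cells in quiescence, and noggin, made in and around the follicle, is known to relieve it at anagen. H3K4me3 marks the starts of active and poised genes, H3K27me3 is laid down by Polycomb repressive complex 2 over repressed developmental genes, and H3K9me3 is best known from heterochromatin.

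Among the 10 genes 4 patterns of marks stood out and are described below. Bmp4 had H3K4me3 in all populations with H3K27me3 on top at early anagen. Nog had a wide H3K4me3 peak in the HFSCs and H3K27me3 over the gene in the other cells. Bmpr1b had no peak of any mark in LC-HFSCs. Bmp5 had no start peak in any list. The 250 bp just upstream of the starts of Bmp4 and Bmp5 are shown, because the first ligand had a start peak in every population and the second in none. The sequences are of the coding strand, 5′ to 3′, on mm9, with the bases of each CpG dinucleotide in capitals. They lie at chr14:47010345-47010594 (minus strand) for Bmp4 and chr9:75622921-75623170 (plus strand) for Bmp5.
Bmp4: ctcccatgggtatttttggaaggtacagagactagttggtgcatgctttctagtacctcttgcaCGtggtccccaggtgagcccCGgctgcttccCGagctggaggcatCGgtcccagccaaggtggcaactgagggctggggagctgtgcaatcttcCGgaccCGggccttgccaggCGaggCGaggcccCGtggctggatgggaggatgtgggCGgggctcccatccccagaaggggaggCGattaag
Bmp5: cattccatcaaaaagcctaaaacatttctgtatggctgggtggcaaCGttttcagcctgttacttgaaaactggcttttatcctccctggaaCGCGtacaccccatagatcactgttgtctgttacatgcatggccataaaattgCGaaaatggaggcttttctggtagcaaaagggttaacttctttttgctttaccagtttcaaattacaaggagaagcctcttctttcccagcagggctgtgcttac
These stretches hold 11 CpGs for Bmp4 and 4 for Bmp5.

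CpG content of the wider start region separated Bmp5 from the others. The ratio of observed to expected CpG over the 3000 bp to either side of the start was 0.27 for Bmp5, the 40.4th percentile of all protein-coding genes, whose median was 0.32. The other 9 genes ranged from 0.45 for Bmpr1b to 0.74 for Bmpr1a and Bmpr2, between the 78.4th and the 99.5th percentile. Genes with a CpG ratio at or above the median of all genes had an H3K4me3 start peak in EA-HFSCs in 93.7% of cases, against 31.2% of those below it. In the same list order, these shares in EA-HFSCs were 73.4% and 22.5% for H3K9me3 and 17.2% and 10.9% for H3K27me3. The 9 BMP genes with an H3K4me3 start peak are on the CpG-rich side of that divide and Bmp5 is not. In the 250 bp upstream alone, Bmp4 (0.45, the 46.4th percentile) and Bmp5 (0.34, the 38.4th percentile) were both below the median of all genes of 0.50, and the other 8 ranged from 0.53 to 0.95. A search of both strands of the 250 bp upstream found the palindrome GGCGCC, the core of a GC-rich SMAD element, at 1 of the 10 genes (Bambi) and in 11.1% of all promoters of this length. The palindrome GTCTAGAC, a SMAD-binding sequence, was at 0 of the 10 and in 0.143% of all promoters. The 2 words do not overlap in these stretches, and a match or its absence says nothing of binding.

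H3K4me3 was present at the start of nearly all of these genes in every population. In EA-HFSCs 9 of 10 genes had a start peak (62.4% of all protein-coding genes), in LC-HFSCs 8 (55.9%), in non-EA-HFSCs 9 (61.7%) and in non-LC-HFSCs 9 (58.8%). Bmp5 lacked it in all 4 populations, and Bmpr1b lacked it also in LC-HFSCs. H3K27me3 was at 5 genes in EA-HFSCs (14.0% of all genes), at 0 in LC-HFSCs (3.73%), at 5 in non-EA-HFSCs (16.8%) and at 3 in non-LC-HFSCs (12.9%). The 5 genes were Bmp4, Bmp6, Bmpr1b, Nog and Bambi at early anagen in both sorts, and the 3 were Bmp6, Nog and Bambi. H3K9me3 was at 9 genes in EA-HFSCs, all but Bmp5 (47.9% of all genes), and at none in LC-HFSCs (0.505%), non-EA-HFSCs (4.14%) or non-LC-HFSCs (14.1%). Among genes at or above the median CpG ratio, where these 9 lie, the share in EA-HFSCs was 73.4%. The plot of window cover gives these values gene by gene.

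**Figure D1:**
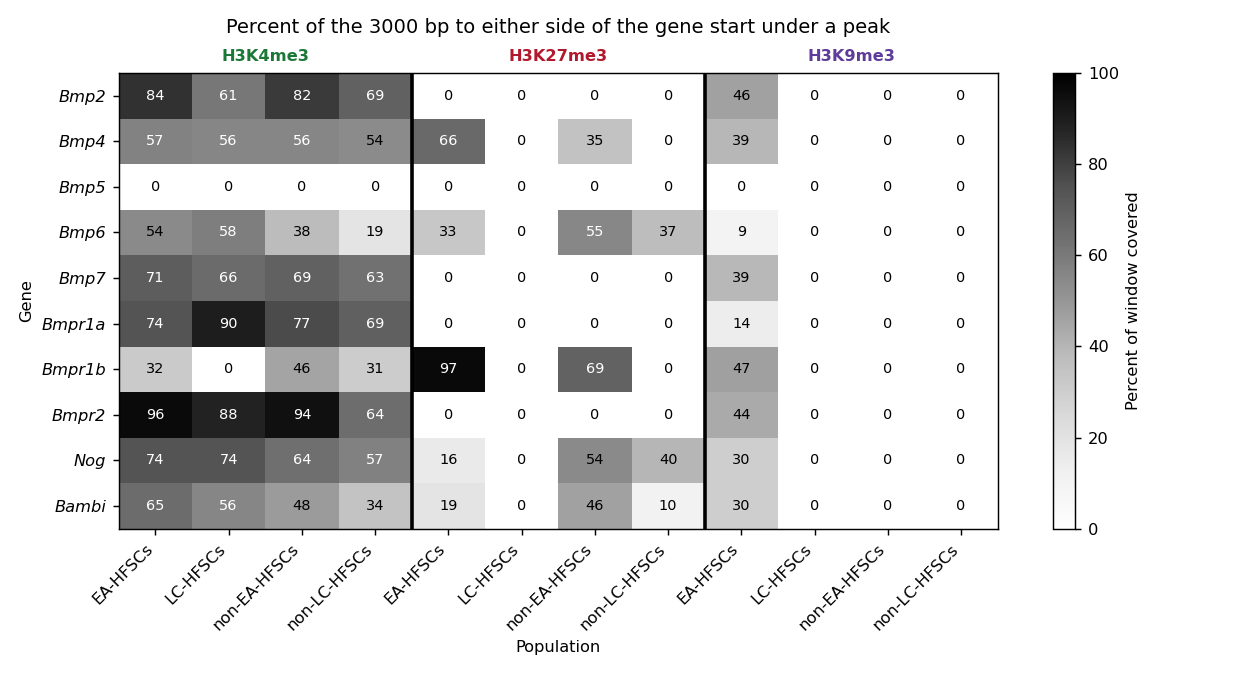
Percent of the window from 3000 bp upstream to 3000 bp downstream of each annotated gene start that lay under peaks, for the 10 BMP genes (rows) and the 12 peak lists (columns, grouped by mark). The Bmp5 row is 0 throughout, H3K27me3 and H3K9me3 are 0 for all 10 genes in LC-HFSCs, and H3K4me3 covers 56% to 90% of the window in LC-HFSCs at the 8 genes that have it.

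From EA-HFSCs to LC-HFSCs, 8 of 9 genes kept an H3K4me3 start peak (89.3% of all genes with one in EA-HFSCs), 0 of 5 kept H3K27me3 (26.1%) and 0 of 9 kept H3K9me3 (0.765%). The share that kept H3K4me3 or lost H3K9me3 was near that of all genes, so neither count is a result about the BMP genes. From non-EA-HFSCs to non-LC-HFSCs, 9 of 9 kept H3K4me3 (94.6%) and 3 of 5 kept H3K27me3 (71.2%), the 2 without it being Bmp4 and Bmpr1b. The LC-HFSC lists for H3K27me3 and H3K9me3 are the shortest of their marks, with 1909 and 1414 peaks against 15273 to 25534 and 17873 to 42277 in the other 3 populations. The part of list length in these counts was examined with equal numbers of peaks in each list, and then H3K27me3 was at 2 BMP genes in EA-HFSCs and at 0 in LC-HFSCs, while H3K9me3 was at 0 in both. Of all 22367 genes, H3K27me3 was then at 1133 in EA-HFSCs and at 834 in LC-HFSCs, and H3K9me3 at 779 and 113, so these counts of BMP genes are too small to set the lists apart.

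The 2 marks H3K4me3 and H3K27me3 were found together at the start of 5 genes in EA-HFSCs (8.89% of all genes), 0 in LC-HFSCs (1.30%), 5 in non-EA-HFSCs (10.8%) and 3 in non-LC-HFSCs (6.60%). Their peaks shared bases at 4 of the 5 genes in EA-HFSCs, all but Bambi, at 5 of 5 in non-EA-HFSCs and at 2 of 3 in non-LC-HFSCs, against 82.8%, 84.7% and 74.8% of all genes with both marks. In pooled cells, both marks on 1 nucleosome, on 2 alleles or in different cells cannot be told apart.

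**Figure D2:**
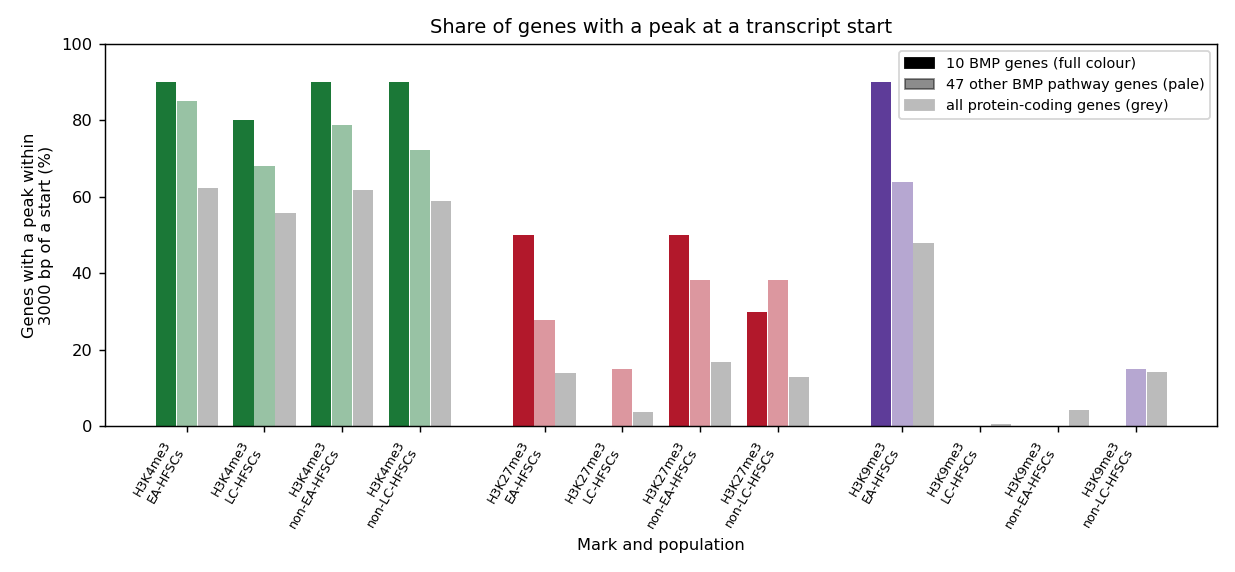
Percent of genes with a start peak (y axis) for each mark and population (x axis), for the 10 BMP genes (full colour), 47 other genes of the BMP pathway (pale) and all 22367 protein-coding genes (grey). The BMP genes lie at 0 for H3K27me3 in LC-HFSCs and for H3K9me3 in all populations but EA-HFSCs, where 9 of 10 had it.

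Among the ligands, Bmp4 kept nearly the same H3K4me3 peak in all populations and differed in H3K27me3. Bmp4 (chr14:47003195-47010344, minus strand, 7150 bp) has 3 annotated transcript starts within 134 bp. Its H3K4me3 peak reached from -414 to 5196 bp of the start in EA-HFSCs (5611 bp wide, score 1553), where negative positions are upstream and the score is the MACS p-value of the peak as 10 times its negative log10. It reached from -332 to 4117 bp in LC-HFSCs (4450 bp, score 363), from -331 to 4893 bp in non-EA-HFSCs (5225 bp, score 3100) and from -220 to 4821 bp in non-LC-HFSCs (5042 bp, score 2651). The upstream edge was thus close to the start in all 4 lists, and most of each peak lay over the gene. Scores depend on depth and background and were compared within a list only: the Bmp4 peak was at the 79.7th, 73.5th, 93.4th and 91.1st percentile of H3K4me3 scores in the same order. The LC-HFSC peak was 0.793 times as wide as the EA-HFSC peak, near the median ratio of all genes of 0.823.

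H3K27me3 covered nearly the same stretch of Bmp4 as H3K4me3 in EA-HFSCs. The main H3K27me3 peak lay at chr14:47005052-47010373, from -29 to 5292 bp (5322 bp), and its score of 699 was at the 95.5th percentile of the list. A peak of 940 bp upstream (score 43.5) and one of 780 bp over a coding exon (score 55.4) stood beside it, and 83.5% of the H3K27me3 bases of the start peaks also lay under H3K4me3. In non-EA-HFSCs the H3K27me3 peak ran only from 12 to 2103 bp (2092 bp, score 78.2, the 49.3rd percentile). LC-HFSCs and non-LC-HFSCs had no H3K27me3 peak at Bmp4, at the start or over the body. The width in non-EA-HFSCs was 0.393 times that in EA-HFSCs, the 1.0th percentile of all genes with H3K27me3 in both, whose median ratio was 1.32. A single H3K9me3 peak of 2350 bp (-125 to 2224 bp, score 122) lay inside the H3K4me3 peak in EA-HFSCs and had no counterpart in the other lists.

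Nearest to the start, upstream of Bmp4, an H3K4me3 peak was centred at -7.7 kb in EA-HFSCs (1630 bp, score 177). It was present at -7.9 kb in non-EA-HFSCs (1830 bp, score 934) and at -7.8 kb in non-LC-HFSCs (1610 bp, score 316). LC-HFSCs had no H3K4me3 peak anywhere in the 369871 bp between Bmp4 and the next protein-coding gene upstream, where the other lists had 3, 5 and 1. The same stretch held 17 H3K27me3 peaks in EA-HFSCs, 0 in LC-HFSCs, 3 in non-EA-HFSCs and 3 in non-LC-HFSCs. The EA-HFSC number corresponds to 4.6 peaks per 100 kb, where the mean of the genome in that list was 0.961. Both non-HFSC lists had 0.811, against means of 0.658 in non-EA-HFSCs and 0.574 in non-LC-HFSCs. The mean of LC-HFSCs was only 0.0718, and the difference between the lists was not tested. Genome means, here and below, count all peaks of a list, those at gene starts included. The downstream end of Bmp4 overlaps the end of the gene model Gm15217, so that Bmp4 has no gene-free flank on that side.

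**Figure D3:**
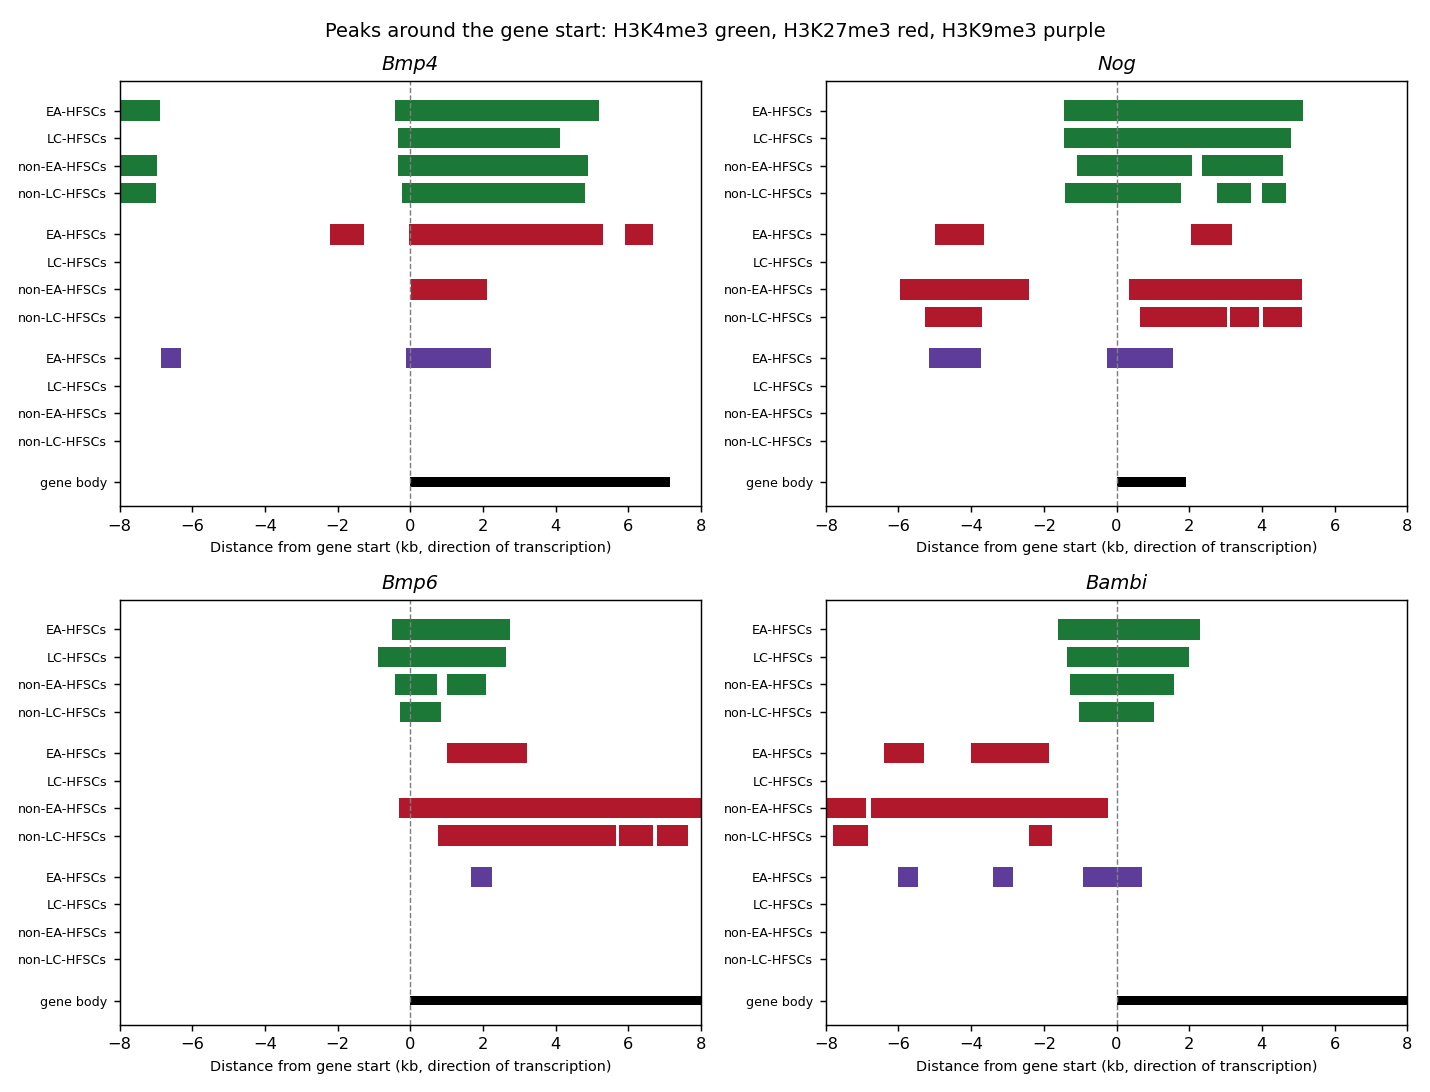
Peaks of H3K4me3 (green), H3K27me3 (red) and H3K9me3 (purple) as bars along the distance from the gene start (x axis, kb, in the direction of transcription) of Bmp4, Nog, Bmp6 and Bambi, 1 row for each population and the gene body in black. Bmp4 is covered by H3K27me3 to 5.3 kb in EA-HFSCs, whereas at Nog, Bmp6 and Bambi the red bars are longest in non-EA-HFSCs.

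Bmp6 showed the opposite order between the sorts. Bmp6 (chr13:38436995-38592183, plus strand, 155189 bp) encodes a ligand also known for its role in iron regulation. Its H3K4me3 start peak was 3240 bp wide in EA-HFSCs (-507 to 2732 bp, score 890) and 3510 bp in LC-HFSCs (-888 to 2621 bp, score 159). In non-EA-HFSCs it was split into peaks of 1173 bp and 1085 bp, and in non-LC-HFSCs 1 peak of 1130 bp remained (score 189). The widest peak of the non-HFSCs was thus 0.362 times that of the HFSCs at early anagen, the 1.8th percentile of all genes, and 0.322 times at late catagen, the 0.5th percentile. Merged into 1, the peaks of non-EA-HFSCs measured 2517 bp, against 3240 bp in EA-HFSCs. With close peaks merged, the median ratio of all genes between these 2 lists was 0.854. Bmp6 was wider in LC-HFSCs than in EA-HFSCs, with a ratio of 1.08, the 96.1st percentile. By the widest single peak it was the one gene of the 8 with H3K4me3 in both HFSC lists to be so, and with close peaks merged Bmpr1a was too.

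H3K27me3 at Bmp6 was wider in both non-HFSC lists, where H3K4me3 was narrow, than in EA-HFSCs. The ratio of widths between non-EA-HFSCs and EA-HFSCs was 1.9, the 72.2nd percentile of all genes with H3K27me3 in both. The median ratio of these genes was 1.32, so a wider peak in non-EA-HFSCs is not particular to Bmp6. In EA-HFSCs the start peak ran from 1011 to 3203 bp (2193 bp, score 99.96, the 67.3rd percentile). In non-EA-HFSCs it ran from -309 to 3867 bp (4177 bp, score 1129, the 97.6th percentile) and was followed almost without a gap by peaks of 7037 bp and 2521 bp, so that H3K27me3 reached 13456 bp into the gene. In non-LC-HFSCs it ran from 765 to 5668 bp (4904 bp, score 718), and 70 bp of it lay under H3K4me3. LC-HFSCs had no H3K27me3 at Bmp6. An H3K4me3 peak in an intron 65 kb into the gene was present in EA-HFSCs (920 bp, score 127) and non-EA-HFSCs (650 bp, score 55.6) and in neither list of late catagen. The last part of Bmp6 overlaps Txndc5, and no peak named here lies in that overlap.

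Bmp2 and Bmp7 had H3K4me3 without H3K27me3 in all 4 populations. Bmp2 (chr2:133377895-133388621, plus strand) had a peak of 6883 bp in EA-HFSCs, the widest single H3K4me3 peak called at any of the 10 genes (score 2762). It was 3904 bp in LC-HFSCs (score 939), 5115 bp in non-EA-HFSCs (score 3100) and 4096 bp in non-LC-HFSCs (score 1584). The difference between the HFSC lists lay on both sides: the upstream edge stood at -2024 bp in EA-HFSCs and at -641 bp in LC-HFSCs, and the downstream edge at 4858 and 3262 bp. The ratio of 0.567 was at the 6.1st percentile of all genes. Bmp2 stands in a large gene-free region of 606122 bp upstream and 934475 bp downstream, in which LC-HFSCs had no peak of any mark. The genome means of the LC-HFSC lists were low for H3K27me3 (0.0718 per 100 kb) and H3K9me3 (0.0506), and 0.554 for H3K4me3. The means include peaks at gene starts, which a gene-free region largely leaves out. H3K4me3 was sparse there in other lists too, with 1 peak on each side in EA-HFSCs and 0 on each side in non-LC-HFSCs. The absence of peaks in LC-HFSCs was not tested.

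Bmp7 (chr2:172693513-172765822, minus strand), a ligand used in many epithelia, had start peaks of similar width in all populations. They were 4796 bp in EA-HFSCs, 4104 bp in LC-HFSCs, 4930 bp in non-EA-HFSCs and 4788 bp in non-LC-HFSCs, with scores of 1402, 276, 3100 and 3100. A weaker H3K4me3 peak in the intron next to it ran from 4457 to 7000 bp in EA-HFSCs (2544 bp, score 85.7). Non-EA-HFSCs had a peak in the first part of that stretch (4460 to 5511 bp) and non-LC-HFSCs one in the last part (5526 to 6812 bp), which do not overlap each other, and none was called in LC-HFSCs. With peaks less than 1000 bp apart merged, the start peak measured 8238 bp in EA-HFSCs and 6658 bp in non-EA-HFSCs, so the similar widths hold for single peaks. Downstream of Bmp7, 309390 bp to the next gene held 7 H3K4me3 peaks in EA-HFSCs, 2 in LC-HFSCs, 16 in non-EA-HFSCs and 9 in non-LC-HFSCs. One of them, 326 kb from the start, was called in all 4 populations.

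Bmp5 (chr9:75623171-75748117, plus strand) was without a start peak of any mark at either of its 2 annotated starts. Over its 124947 bp there were only 2 peaks in the 12 lists. One was an H3K27me3 peak of 684 bp in EA-HFSCs with a score of 40.4, next to the threshold of 40, and the other an H3K9me3 peak of 856 bp in non-EA-HFSCs (score 72.8).

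The receptors Bmpr1a and Bmpr2 had wide H3K4me3 peaks and no H3K27me3 peak in any list, at the starts or over the gene. Bmpr2 (chr1:59821481-59927703, plus strand) had peaks of 6104 bp in EA-HFSCs (score 3040), 5279 bp in LC-HFSCs (score 683), 5712 bp in non-EA-HFSCs (score 3100) and 3873 bp in non-LC-HFSCs (score 3100). They covered between 64% and 96% of the 3000 bp to either side of the start. Bmpr1a (chr14:35223920-35316527, minus strand), the type I receptor best studied in the follicle, had 1 peak of 5246 bp in EA-HFSCs (score 1922), 5613 bp in non-EA-HFSCs (score 3100) and 4164 bp in non-LC-HFSCs (score 2430). In LC-HFSCs the same stretch was called as 2 peaks 7 bp apart, one of 3231 bp downstream (632 to 3862 bp, score 463) and one of 3030 bp over the start (-2405 to 624 bp, score 54.5). The score of the second is next to the threshold of 50, at the 2.9th percentile of the list. Taken as 1 stretch they span 6268 bp, so whether Bmpr1a was narrower or wider in LC-HFSCs than in EA-HFSCs depends on how adjoining peaks are treated.

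Bmpr1b was the one BMP gene with H3K4me3 at its start in 3 populations and not in LC-HFSCs. Bmpr1b (chr3:141500100-141832389, minus strand, 332290 bp) encodes the second type I receptor, known for its role in cartilage. Its H3K4me3 start peak was 1897 bp in EA-HFSCs (-687 to 1209 bp, score 558), 2741 bp in non-EA-HFSCs (-687 to 2053 bp, score 1544) and 1836 bp in non-LC-HFSCs (-566 to 1269 bp, score 548). The LC-HFSC lists held no peak of any mark at its starts or over its body. Bmpr1b and Bmp5 were the 2 BMP genes without any peak in LC-HFSCs.

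H3K27me3 at the start of Bmpr1b extended beyond H3K4me3 on both sides in EA-HFSCs, and on the upstream side in non-EA-HFSCs. In EA-HFSCs a peak of 4866 bp (-2649 to 2216 bp, score 366, the 90.9th percentile) was flanked by peaks of 1577 bp and 946 bp, and 97% of the window was covered. In non-EA-HFSCs peaks of 2785 bp (-1334 to 1450 bp, score 152) and 2234 bp (score 81.4) covered 69%. Non-LC-HFSCs had H3K4me3 alone. In EA-HFSCs only, a further group of 9 H3K27me3 peaks lay between 223.8 and 255.5 kb from the start (chr3:141576891-141608565), in a stretch that holds the 2 annotated starts furthest into the gene. These 9 peaks spanned 31.7 kb and covered 21187 bp, with widths from 923 to 7663 bp and scores up to 559, and no H3K4me3 peak of any population lay there. H3K9me3 in EA-HFSCs had 3 start peaks, the widest of 2174 bp (score 142, the 93.8th percentile), and 5 small peaks within the group.

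**Figure D4:**
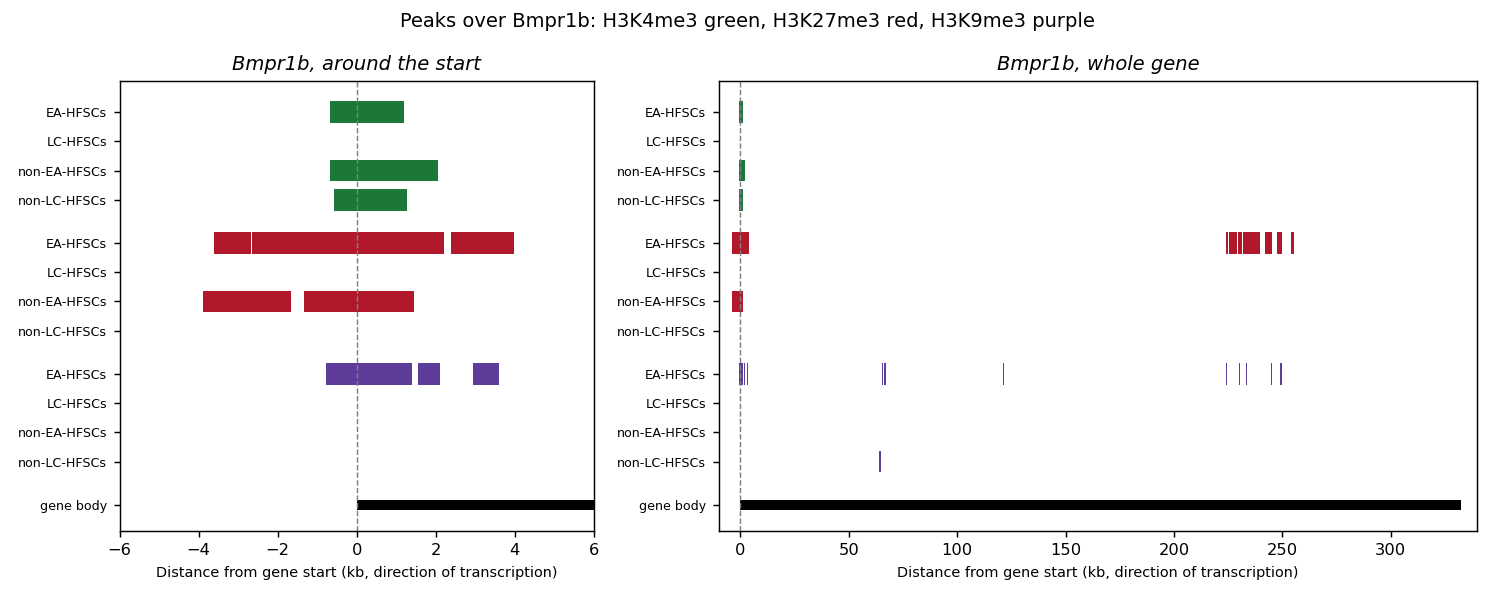
Peaks over Bmpr1b, near the start (left) and along the whole gene (right), with distance from the start in kb on the x axis and 1 row for each mark and population (H3K4me3 green, H3K27me3 red, H3K9me3 purple, gene body black). The LC-HFSC rows are empty, and the group of H3K27me3 peaks between 223.8 and 255.5 kb stands in EA-HFSCs alone.

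Nog carried a wide H3K4me3 peak in the HFSCs that was called as separate peaks in the non-HFSCs. Nog (chr11:89161952-89163873, minus strand, 1922 bp, a gene of 1 exon) encodes noggin, which binds BMPs outside the cell and blocks their receptors. In EA-HFSCs its H3K4me3 peak ran from -1444 to 5132 bp (6577 bp, score 3100, the 98.2nd percentile) and in LC-HFSCs from -1444 to 4788 bp (6233 bp, score 995, the 98.7th percentile). This was the highest percentile of any of the 8 genes in LC-HFSCs. In both lists the peak covered the whole gene and ran more than 2 kb past its end. In non-EA-HFSCs a peak of 3179 bp over the gene (score 1722) and one of 2230 bp downstream (score 513) took its place, and in non-LC-HFSCs one of 3193 bp (score 987), one of 934 bp (score 80.6) and one of 656 bp (4008 to 4663 bp, score 88.8). The widest peak of the non-HFSCs was 0.483 times that of the HFSCs at early anagen (the 5.1st percentile of all genes) and 0.512 times at late catagen (the 2.9th percentile). With peaks less than 1000 bp apart merged, the peak of non-EA-HFSCs was 5679 bp wide, against 6577 bp in EA-HFSCs. The median ratio of all genes between these lists, so merged, was 0.854. The low ratio of Nog at early anagen thus depends on how close peaks are treated.

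H3K27me3 at Nog was a small peak downstream of the gene in EA-HFSCs and lay over most of the gene in the non-HFSCs. The EA-HFSC peak ran from 2051 to 3181 bp (1131 bp, score 53.9), all of it under H3K4me3. In non-EA-HFSCs it ran from 336 to 5092 bp (4757 bp, score 466, the 90.8th percentile), with another of 3555 bp upstream (-5965 to -2411 bp, score 136). In non-LC-HFSCs it ran from 633 to 3037 bp (2405 bp, score 236) and was followed by peaks of 784 bp and 1074 bp up to 5101 bp, near the end reached in non-EA-HFSCs. An upstream peak was also present in EA-HFSCs (-4997 to -3641 bp, score 60.8) and non-LC-HFSCs (-5268 to -3691 bp, score 42.8). LC-HFSCs had none of these. The ratio of widths between non-EA-HFSCs and EA-HFSCs was 4.21, the 95.5th percentile of all genes with H3K27me3 in both. On the downstream side of Nog, 3 distal H3K4me3 peaks about 62.6, 115.1 and 201.5 kb from its start were called in each of the 4 lists.

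Bambi, a membrane protein that resembles a BMP receptor without a kinase and dampens signalling, lies at chr18:3507955-3516402 (plus strand). Its H3K4me3 peak was 3904 bp in EA-HFSCs (score 2926), 3343 bp in LC-HFSCs (score 454), 2884 bp in non-EA-HFSCs (score 1592) and 2062 bp in non-LC-HFSCs (score 935). H3K27me3 stood upstream of the start and not over the gene: from -3993 to -1852 bp in EA-HFSCs (2142 bp, score 127), from -6756 to -237 bp in non-EA-HFSCs (6520 bp, score 245) and from -2403 to -1786 bp in non-LC-HFSCs (618 bp, score 40.2, next to the threshold). Only the peak of non-EA-HFSCs overlapped H3K4me3, over 1056 bp. In EA-HFSCs the 649427 bp downstream of Bambi, which hold no protein-coding gene, had 19 H3K27me3 peaks and the other 3 lists had 0 there. This was 2.93 peaks per 100 kb in EA-HFSCs, against a genome mean of 0.961. The genome means of the other lists were 0.0718 in LC-HFSCs, 0.658 in non-EA-HFSCs and 0.574 in non-LC-HFSCs. The same stretch held 15 H3K9me3 peaks in EA-HFSCs (2.31 per 100 kb against 1.59).

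H3K4me3 start peaks of the BMP genes were wide in each population. The median of the widest start peak was 5246 bp over 9 genes in EA-HFSCs, against 3123 bp over all genes with one, 4004 bp over 8 genes in LC-HFSCs (2587 bp), 4930 bp over 9 genes in non-EA-HFSCs (2571 bp) and 3873 bp over 9 genes in non-LC-HFSCs (2320 bp). The narrowest was Bmpr1b in EA-HFSCs (1897 bp) and Bmp6 in the non-HFSCs. Between EA-HFSCs and LC-HFSCs 7 of 8 genes were narrower in LC-HFSCs, with a median ratio of 0.856, and 89.5% of all genes were narrower, with a median of 0.823. With peaks less than 1000 bp apart merged, Bmpr1a changed sides and 6 of 8 were narrower, with a median ratio of 0.861, against 89.9% and 0.82 for all genes. Between non-EA-HFSCs and non-LC-HFSCs 8 of 9 were narrower at late catagen, median 0.801, against 79.9% and 0.89 for all genes. With close peaks merged, 8 of 9 were narrower there too, median 0.715, against 80.6% and 0.887 for all genes. The shares of narrower genes are thus near those of all genes, while the median ratio in the non-HFSCs was lower than that of all genes. The difference in medians was not tested. For H3K27me3 the median width of the 5 genes in EA-HFSCs, 2193 bp, was below that of all genes with a start peak, 3631 bp.

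**Figure D5:**
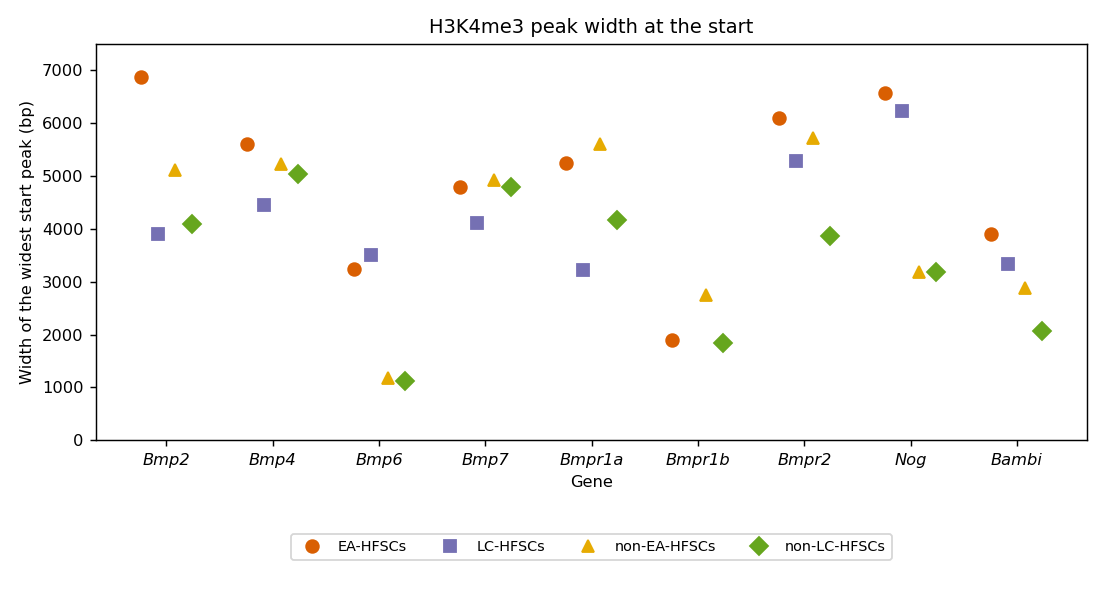
Width in bp (y axis, from 0) of the widest H3K4me3 start peak of the 9 BMP genes that have one (x axis), with 1 point for each population. Bmp6, Nog and Bambi are wider in both HFSC lists than in both non-HFSC lists, and Bmpr1b has no LC-HFSC point. At early anagen 6 of 9 BMP genes and 83.0% of all genes were narrower in the non-HFSCs than in the HFSCs. At late catagen it was 4 of 8 and 73.6%, so a wider peak in HFSCs is not particular to these genes.

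At the gene starts, H3K9me3 in EA-HFSCs lay with H3K4me3. At 9 of 9 genes the H3K9me3 start peaks overlapped H3K4me3, as they did at 96.0% of all genes with both. Their bases lay wholly under H3K4me3 at all but Bambi (75.0%) and Bmpr1b (55.6%). With the widest taken for each gene, the start peaks ran from 567 bp at Bmp6 (score 43.9) to 2769 bp at Bmp2 (score 116). Their scores ran from the 17.9th to the 93.8th percentile of the list. Only those of Bmp2, Bmp4 and Bmpr1b reached a score of 100. Over the gene bodies, 7 further H3K9me3 peaks at Bmp6 and 8 at Bmpr1b lay outside the H3K4me3 peaks of EA-HFSCs. In the other 3 populations small H3K9me3 peaks lay only inside introns, at Bmp5 and Bmp6 in non-EA-HFSCs and at Bmp6, Bmp7, Bmpr1b and Bmpr2 in non-LC-HFSCs.

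The flanks of the 10 genes up to the next protein-coding gene made up 3.8 Mb. They held 22 H3K4me3 peaks in EA-HFSCs, 7 in LC-HFSCs, 31 in non-EA-HFSCs and 17 in non-LC-HFSCs. H3K27me3 peaks numbered 63, 0, 24 and 14 in the same order, and H3K9me3 peaks 75, 0, 20 and 21. The density of H3K27me3 in EA-HFSCs was 1.67 per 100 kb, above the genome mean of 0.961 in that list, with 17 of the 63 peaks upstream of Bmp4 and 19 downstream of Bambi. In the other lists it was below the genome mean, at 0 against 0.0718 in LC-HFSCs, 0.635 against 0.658 in non-EA-HFSCs and 0.37 against 0.574 in non-LC-HFSCs. H3K4me3 was below the genome mean in all 4 lists, and H3K9me3 was above it in EA-HFSCs (1.98 against 1.59) and below it in the other 3. The genome mean counts all peaks, those at gene starts included, which the flanks largely leave out. A low H3K4me3 density in the flanks is thus built into the comparison and is not a result about the BMP genes. All 7 H3K4me3 peaks of LC-HFSCs lay in the flanks of Bmp7, Nog or Bmpr2 and were distal. The nearest was at -34.3 kb from the start of Bmpr2 and the furthest at 326.2 kb from that of Bmp7.

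Among 47 other genes of the pathway, a part had H3K27me3 in each population, LC-HFSCs included. H3K4me3 was at 40 in EA-HFSCs (62.4% of all genes), 32 in LC-HFSCs (55.9%), 37 in non-EA-HFSCs (61.7%) and 34 in non-LC-HFSCs (58.8%). In the same order H3K27me3 was at 13 (14.0% of all genes), 7 (3.73%), 18 (16.8%) and 18 (12.9%). H3K9me3 was at 30 (47.9%), 0 (0.505%), 0 (4.14%) and 7 (14.1%). Of the genes with H3K27me3 in EA-HFSCs, 7 of 13 kept it in LC-HFSCs, where the 10 BMP genes kept 0 of 5 and all genes 26.1%. In the non-HFSCs 18 of 18 kept it, where all genes kept 71.2%. The difference between the other pathway genes and the 10 BMP genes was not tested. By role, H3K27me3 in EA-HFSCs was at 5 of 9 further ligands, 1 of 8 further receptors and co-receptors, 6 of 16 antagonists and extracellular modulators, 0 of 8 intracellular components and 1 of 6 target genes. The Smad and Smurf genes and the targets Id1 to Id4, Msx1 and Msx2 had H3K4me3 in all 4 populations.

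The 7 pathway genes with H3K27me3 in LC-HFSCs were the ligands Bmp8b, Gdf6 and Gdf7, the modulators Bmper, Chrdl2 and Sost, and the homeobox gene Msx1. In EA-HFSCs their widest H3K27me3 start peaks included 27030 bp at Msx1, 15387 bp at Gdf6, 13899 bp at Gdf7 and 10084 bp at Sost, against 5322 bp at Bmp4 and 1131 bp at Nog. In LC-HFSCs they were 13004 bp at Msx1, 11555 bp at Gdf6 and 6910 bp at Sost, the last with the highest score, 182. H3K4me3 was at the start in EA-HFSCs and not in LC-HFSCs at Bmp3, Bmp8b, Gdf6, Gdf7, Hfe2, Chrdl1, Chrdl2 and Sost. Each of these 8 had H3K27me3 in EA-HFSCs, as did Bmpr1b, where 14.0% of all genes had it. Its share among all genes that lost an H3K4me3 start peak was not computed. Bmp4, Bmp6, Nog and Bambi had both marks in EA-HFSCs and kept H3K4me3. A link between H3K27me3 in EA-HFSCs and the loss of H3K4me3 was not tested.

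The genes with the pattern most like that of Bmp4 were found by the covered bases within 3000 bp of the annotated start over the 12 lists, as the sum of the smaller over the sum of the larger values, among 2227 genes with a peak of each mark. They were the gene model Gm1614 (0.880), Ascl2 (0.843), which encodes a basic helix-loop-helix transcription factor, and Pip4k2a (0.843), a lipid kinase. Ascl2 had 4076 bp of H3K27me3 in EA-HFSCs, 0 in LC-HFSCs and 3030 bp in non-EA-HFSCs, where Bmp4 had 3970, 0 and 2092 bp, and it differed by 1420 bp in non-LC-HFSCs, where Bmp4 had 0.

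The sorts were checked against marker genes of the cell types they could hold. H3K4me3 was at the start of 10 of 10 bulge markers in the HFSCs of both ages and at 9 in both non-HFSC populations, where Cd34 lacked it and had H3K27me3. H3K27me3 was at 0 of these markers in both HFSC lists, at 5 in non-EA-HFSCs and at 6 in non-LC-HFSCs. The 4 basal keratinocyte markers had H3K4me3 everywhere, the 4 leukocyte markers (Ptprc, Cd3e, Cd207, Itgam) nowhere, and of 3 endothelial markers Kdr everywhere and Pecam1 and Cdh5 nowhere. Kdr also had H3K27me3 at its start in all 4 populations. Of 4 dermal fibroblast markers 3, 2, 3 and 3 had it in the order used above, and of 4 melanocyte markers 2, 2, 2 and 1, while the melanocyte gene Tyr lacked it in all. Start peaks do not measure cell numbers, and the part of other cell types in the results was not tested. A score of 3100, the cap of the peak caller for most peaks, was shared by 2701 of 24498 H3K4me3 peaks in non-EA-HFSCs and by none in LC-HFSCs.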

How the data were processed

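ChIP-seq of 3 histone marks in 4 sorted populations was examined in 12 peak lists. The 4 IgG samples were the authors' background for peak calling and come without a list. The authors trimmed single-end reads (Trimmomatic 0.22 per the labels), aligned them to mm9 with Bowtie2, pooled independent experiments and called peaks with MACS against IgG. The deposited score of a peak is 10 times the negative log10 of its p-value. The MACS cutoff was 1e-05 (score 50) for H3K4me3 and 0.0001 (score 40) for the other marks. The authors state more reads for LC-HFSCs than EA-HFSCs, and that H3K27me3 and H3K9me3 were not sequenced to saturation, so a missing peak does not show that a mark is absent.

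From the lists, start peaks (at least 1 bp within 3000 bp of any transcript start), widths, covered bases and flanks were computed with Python 3.11.15 and numpy 2.4.6 for 22367 protein-coding genes (GENCODE vM1, genome sequence of mm9). Finding start peaks was tested on simulated peaks. Width ratios compare the widest start peak of a gene in 2 lists. Positions are 1-based. The members and gene lists were chosen with earlier results of these data known. All 10 members are named. Of the other pathway genes, those with H3K27me3 in LC-HFSCs or with H3K4me3 in EA-HFSCs and not LC-HFSCs are named, and of the genes most like Bmp4 the first 3. Alternatives changed the score threshold, the window, the starts used, the overlap, the length of the lists and the merging of close peaks. With 1 list for each mark and population, no test was made. The upstream sequences of the other genes are not reported here.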

Additional observations from a re-analysis of the deposited data

Results flagged for a closer look

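The cover of the start windows by H3K4me3 moved in opposite directions between the ages in the 2 sorts at Bmp6 and Bmpr1a, and the difference was not tested at either gene. At Bmp6 the covered length was 270 bp larger in LC-HFSCs than in EA-HFSCs, and from non-EA-HFSCs to non-LC-HFSCs it changed by -1128 bp. At Bmpr1a it was 966 bp larger in LC-HFSCs than in EA-HFSCs, and from non-EA-HFSCs to non-LC-HFSCs it changed by -1266 bp. The Bmpr1a value in LC-HFSCs includes the start peak with a score of 54.5, and with peaks of a score of at least 100 alone the covered length in LC-HFSCs was 3182 bp.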

How the results depend on the processing

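Counts of BMP genes with an H3K4me3 start peak, with H3K27me3 in LC-HFSCs, with H3K9me3 outside EA-HFSCs and with an EA-HFSC peak kept in LC-HFSCs stayed within 1.5 times their value under all 6 alternatives. Each of the 6 can only remove start peaks, so the counts that are 0 could not move. With a score of at least 100, H3K27me3 in EA-HFSCs was at 3 genes (Bmp4, Bmpr1b, Bambi), H3K9me3 in EA-HFSCs at 3 and both H3K4me3 and H3K27me3 in EA-HFSCs at 3, and of the other pathway genes H3K27me3 in LC-HFSCs was at 1, H3K9me3 in EA-HFSCs at 13 and H3K9me3 in non-LC-HFSCs at 0. With a score of at least 50 the last was 4. With a window of 1000 bp, H3K27me3 in EA-HFSCs was at 3 BMP genes (Bmp4, Bmp6, Bmpr1b), as were both marks. With equal numbers of top-scoring peaks, H3K27me3 was at 2 BMP genes in EA-HFSCs (Bmp4, Bmpr1b), 2 in non-EA-HFSCs (Bmp6, Nog) and 1 in non-LC-HFSCs (Bmp6), which was the 1 gene to keep it there, both marks were at 2, 1 and 1, and H3K9me3 in EA-HFSCs was at 0. Of the other pathway genes it then was at 8, 8 and 11 for H3K27me3 and at 6 and 0 for H3K9me3 in EA-HFSCs and non-LC-HFSCs. The alternatives for genes with both marks and for peaks kept in non-LC-HFSCs, and merging for the counts of narrower peaks, were chosen after seeing the data. Merging peaks less than 1000 bp apart moved 11 of 120 widths by more than 1.5 times, among them H3K4me3 of Nog in non-EA-HFSCs (5679 bp) and of Bmp6 in non-EA-HFSCs (2517 bp) and H3K27me3 of Bmpr1b in EA-HFSCs (15806 bp), all upward. No paired analysis was possible because each population and mark has 1 pooled list, and for the same reason no replicate could be left out. A peak that was not called may lie below what the depth allows.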
